A study of Mus musculus with 4 samples.

Results

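The nuclei described here are those that the authors' deposited annotation calls fibrous astrocytes, in single-nucleus RNA sequencing of the mouse superior colliculus. They were taken from the deposited subtype column alone, and they number 189 of 9724 nuclei, or 1.94% of all nuclei and 0.849% of all UMIs (unique molecular identifiers, each standing for 1 captured RNA molecule). The superior colliculus forms part of the midbrain roof and serves orienting movements. Tissue came from C57BL/6J mice of 4 ages, embryonic day 19 (E19) and days 4, 8 and 21 after birth (P4, P8, P21). Each stage is 1 library made from tissue of several animals together, so the animals of a library cannot be told apart. The series compares these stages, and the annotation splits the astrocytes into 189 fibrous and 750 protoplasmic nuclei.

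Astrocytes are glial cells that clear transmitters and potassium, supply neurons with metabolites and line blood vessels. By classical anatomy, protoplasmic astrocytes lie in grey matter and fibrous astrocytes in white matter and along surfaces, where they carry more of the intermediate filament protein encoded by Gfap. Slc1a3 encodes the glutamate transporter GLAST, which radial glia, the precursors of astrocytes, express as well. In the midbrain, cells that line the ventricle carry motile cilia, which are built from axonemal dyneins (Dnah genes) and cilia and flagella associated proteins (Cfap genes).

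The 4 libraries held 41, 48, 45 and 55 fibrous nuclei in stage order. These were 20.9%, 21.5%, 19.3% and 19.2% of the astrocyte nuclei, and the 95% exact binomial intervals, which cover counting error only, all overlapped (14.8% to 24.2% for the lowest share, 16.3% to 27.5% for the highest). The fibrous nuclei of a library held between 190524 and 226758 UMIs, with a median of 3882 to 4777 UMIs per nucleus, against 4277 to 5810.5 in protoplasmic nuclei. At P21 the medians were 3882 and 5810.5. All 189 nuclei belong to cluster 18 of the authors and all 750 protoplasmic nuclei to cluster 1, so the 2 labels were drawn from the same counts that are compared below. For that reason, and with 1 library per stage, no difference between labels or stages is tested here. Levels are UMIs summed over the nuclei of a library and given as counts per 1000000 UMIs of that sum (CPM), with 95% exact Poisson intervals for counting error. Ratios are on the log2 scale after adding 5 CPM to each level, so those of low genes come out too small. No fibrous nucleus shares its barcode with a nucleus of another library.

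Gfap and Slc1a3 were the markers for the label, and they did not go together. Gfap (chromosome 11, 102887336 to 102900912, minus strand of GRCm38) had 1 UMI in the 41 nuclei of E19, which is 5.25 CPM (95% interval 0.133 to 29.2). It stood at 177 CPM (127 to 241) at P4, 1698 CPM (1530 to 1879) at P8 and 1654 CPM (1491 to 1830) at P21. The protoplasmic nuclei of the same libraries had 2.72, 116, 70.6 and 63.6 CPM. Gfap was thus level with protoplasmic nuclei at E19 within counting error, and the P8 and P21 libraries stood far above P4. A Gfap UMI was found in 2.44%, 29.2%, 88.9% and 90.9% of fibrous nuclei in stage order. In excitatory neurons, which should lack the gene, the shares were 0.0747%, 4.98%, 12.3% and 18.0%, at median depths of 8051.5 to 19601 UMIs. With every nucleus thinned to 1500 UMIs, the shares at P21 were 78.2% of fibrous nuclei and 1.17% of excitatory neurons.

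Slc1a3 (chromosome 15, 8634124 to 8710764, minus strand) was lower in fibrous than in protoplasmic nuclei in every library. Fibrous nuclei had 646, 270, 649 and 441 CPM in stage order, and protoplasmic nuclei had 1096, 893, 1127 and 1279 CPM. The intervals of the 2 labels did not overlap at any stage. Of the 35 subtypes, fibrous nuclei had rank 4 for Slc1a3 over all stages, at 495 CPM.

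Myoc, Slc38a1 and Aqp4 also stood higher at P8 and P21 than at E19 and P4. Myoc, which encodes the secreted protein myocilin, had no UMI at E19, 1 at P4, and stood at 931 CPM at P8 and 2439 CPM at P21, against at most 13.7 CPM in protoplasmic nuclei. Slc38a1, a sodium-coupled transporter of glutamine and other neutral amino acids, stood at 231, 377, 1026 and 2099 CPM. Aqp4, the water channel of astrocyte endfeet, stood at 163, 204, 1308 and 1848 CPM, and in protoplasmic nuclei at 158, 321, 463 and 547 CPM. The 189 nuclei held 42.4% of the Gfap UMIs of the series, 72.8% of the Myoc UMIs and 20.3% of the Aqp4 UMIs. By Gfap, the label holds for most nuclei at P8 and P21, while at E19 and P4 most nuclei had no Gfap UMI.

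**Figure D1:**
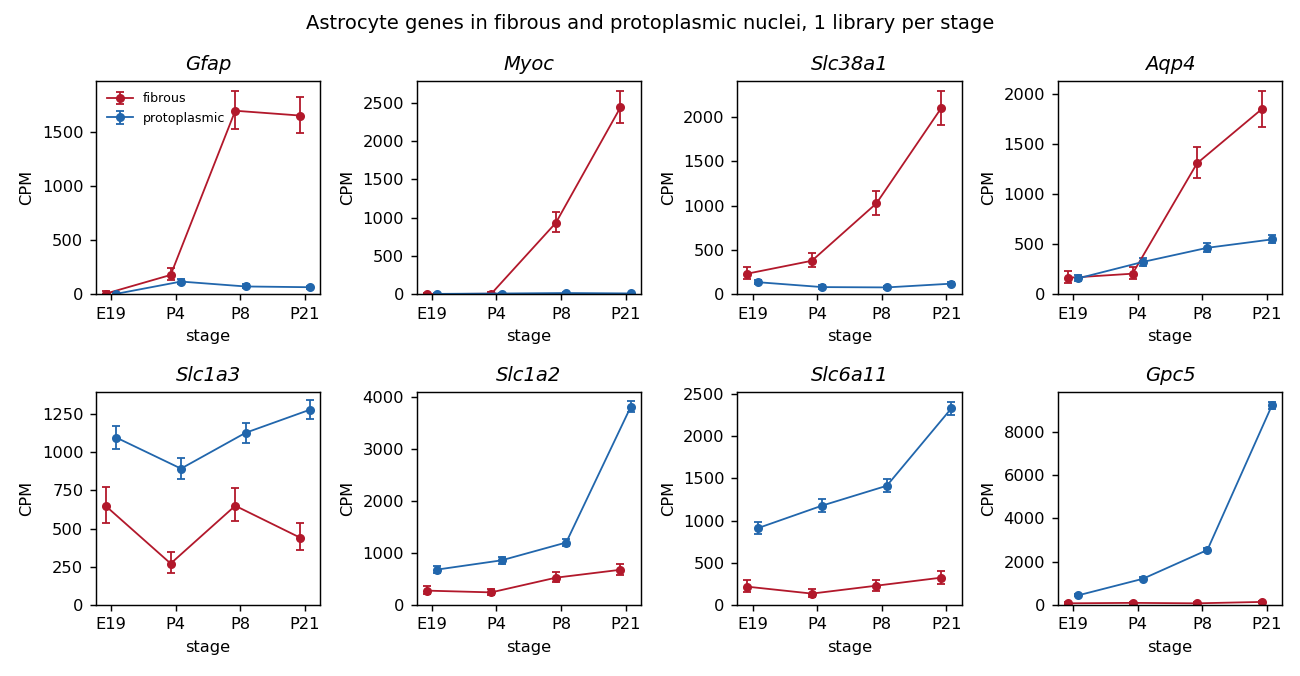
Levels in CPM (vertical axes, from 0) at the 4 stages (horizontal axes) of 8 genes in fibrous (red) and protoplasmic (blue) nuclei; points are summed nuclei of 1 library and bars are 95% Poisson intervals. Gfap, Myoc and Aqp4 stand far above protoplasmic nuclei at P8 and P21 but not before, Slc38a1 from P4 on (377 against 79.1 CPM), whereas Slc1a3, Slc1a2, Slc6a11 and Gpc5 are lower in fibrous nuclei at all 4 stages.

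One level per stage does not describe the label, since at E19 and P4 most of its nuclei carried other leading genes. The nuclei were divided into 4 sets with cuts that were chosen after their values were seen. The Gfap set comprises nuclei with at least 5 UMIs of Gfap, Myoc and Slc38a1 together. The Dnah/Cfap set comprises nuclei with at least 0.5% of their UMIs from the 41 Dnah and Cfap genes of the matrix, and the Ttr set those with at least 20 UMIs of Ttr, the gene of the thyroid hormone carrier transthyretin. A nucleus that met several cuts went to the Ttr set first and then to the Dnah/Cfap set, and 7 nuclei of the latter also passed the Gfap cut. The sets hold 97, 38 and 6 nuclei, and 48 nuclei remained.

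The makeup differed between the libraries. At E19, 34 of 41 nuclei remained outside every set, 6 were in the Dnah/Cfap set and 1 in the Gfap set, the latter through 8 Slc38a1 UMIs, with no Gfap or Myoc UMI. At P4 the Dnah/Cfap set was the largest, with 25 of 48 nuclei (52.1%, 95% interval 37.2% to 66.7%), followed by 11 remaining nuclei, 6 of the Gfap set and 6 of the Ttr set. At P8, 39 of 45 nuclei (86.7%) were in the Gfap set, and at P21 51 of 55 (92.7%). The Dnah/Cfap set held 3 nuclei at P8 and 4 at P21. The classes are ranges, not types: 29 nuclei had 3 to 7 UMIs of the 3 genes and 25 had 0.3% to 0.7% of their UMIs from Dnah and Cfap genes, whereas no nucleus lay near the Ttr cut. With a cut of 3 in place of 5 UMIs the Gfap set held 5, 7, 42 and 51 nuclei in stage order, and with a cut of 8 it held 1, 3, 34 and 51. Fewer nuclei of a kind and less RNA of its genes per nucleus cannot be told apart by such cuts.

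The same cuts picked few protoplasmic nuclei. At least 5 UMIs of the 3 genes were found in 6 of 155, 8 of 175, 6 of 188 and 13 of 232 protoplasmic nuclei in stage order. At P4, 7 of the 175 protoplasmic and 4 of the 48 fibrous nuclei had at least 5 Gfap UMIs. No protoplasmic nucleus reached either of the other 2 cuts. Over all 35 subtypes, the Dnah/Cfap cut was reached by no nucleus outside the fibrous label.

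**Figure D2:**
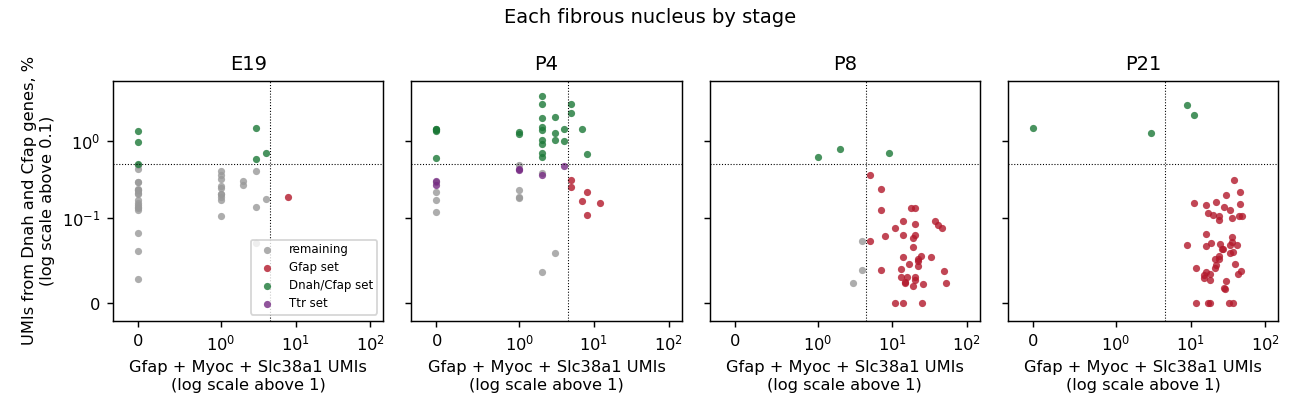
Each point is 1 fibrous nucleus, with 1 panel per stage; the horizontal axis gives its UMIs of Gfap, Myoc and Slc38a1 together (log scale above 1) and the vertical axis the percent of its UMIs from Dnah and Cfap genes (log scale above 0.1), dotted lines marking the cuts of 5 UMIs and 0.5%. At P8 and P21 nearly all points lie at the lower right, in the Gfap set, and at P4 25 of 48 lie above the 0.5% line.

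**Figure D3:**
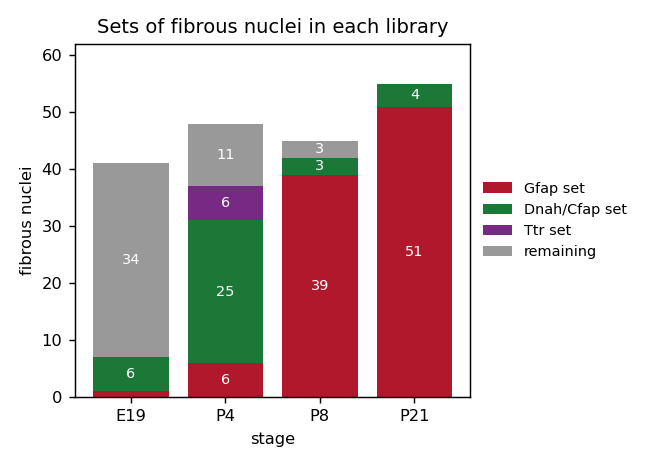
Number of fibrous nuclei (vertical axis) of each set in the 4 libraries (horizontal axis), stacked from 0. The Gfap set makes up 1 nucleus at E19 (the bottom sliver) and 51 of 55 at P21, and the 34 remaining nuclei make up most of E19.

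The Gfap set at P8 and P21 is the part of the label chosen by 3 of the 10 genes on the fibrous marker list. Among its nuclei, 37 of 39 had a Gfap UMI at P8 and 49 of 51 at P21, with medians of 8 and 7 UMIs per nucleus and maxima of 43 and 25. Myoc was found in 25 of the 39 nuclei at P8, with a median of 2 UMIs, and in 48 of the 51 at P21, with a median of 10. Slc38a1 was found in 36 and in 51 nuclei. These 3 genes chose the set, so their levels describe it and support nothing. Of the 7 other fibrous markers, 3 (Cd44, Id1 and Vim) stood 2-fold or more above protoplasmic nuclei at both stages and none below. Among all genes with at least 50 CPM in the Gfap set or protoplasmic nuclei at either stage, 6.16% stood above and 3.28% below. Cd44 and Vim reached that level in the Gfap set alone, so they could not have counted as lower. The median log2 ratio of the 7 markers was 0.59, and Slc1a3 and S100b were the lowest. Median depth was 4777 UMIs per nucleus at P8 and 3856 at P21.

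Against protoplasmic nuclei of the same library, 333 of 5404 genes with at least 50 CPM in any of the 4 profiles (6.16%) were 2-fold or more higher in the Gfap set at both P8 and P21, and 177 (3.28%) were 2-fold or more lower. With trimmed-mean (TMM) scaling in place of totals, which moved the median of all genes from 0.13 to -0.13 on the log2 scale, the counts were 248 and 265. The balance between higher and lower genes therefore depends on the scaling, and ratios near that shift carry no direction.

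The genes that stood highest besides the 3 of the rule included matrix and membrane proteins. Emb, the immunoglobulin superfamily protein embigin, stood at 270 CPM at P8 and 397 CPM at P21, against 7.84 and 7.86 CPM in protoplasmic nuclei. Tnr, the matrix glycoprotein tenascin-R, stood at 1717 and 1634 CPM against 143 and 123, and is not particular to these nuclei, since committed oligodendrocytes had 8224 CPM over all stages. Ccbe1, a secreted protein known from lymphatic development, had log2 ratios of 4.11 at P8 and 3.86 at P21. Greb1l had ratios of 3.87 and 5.23, the zinc finger gene Bnc2 of 3.99 and 3.77, Prune2 of 3.66 and 3.64, Garnl3 of 3.49 and 3.79, and Disp3, a sterol-sensing domain protein, of 3.57 and 3.41.

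The lowest genes were led by Gpc5, a cell surface heparan sulphate proteoglycan. It stood at 74.2 CPM at P8 and 139 CPM at P21 in the Gfap set, against 2534 and 9219 CPM in protoplasmic nuclei, a log2 ratio of -5.00 and -6.01. Etv4 and Etv5, transcription factors that are known targets of fibroblast growth factor signalling, had ratios of -4.15 and -4.34, and of -2.89 and -2.84. Slc6a11, the GABA transporter GAT-3, stood at 212 and 344 CPM against 1414 and 2333 CPM. Trpm3, a cation channel, stood at 233 and 1305 CPM against 1672 and 10638 CPM. Vegfa, the vascular growth factor, stood at 10.6 and 33.5 CPM against 148 and 242. Dpf3, Rgcc, Eps8, Shc3, Abtb2 and Ripor2 made up the rest of the 12 lowest, with ratios between -2.56 and -4.52.

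**Figure D4:**
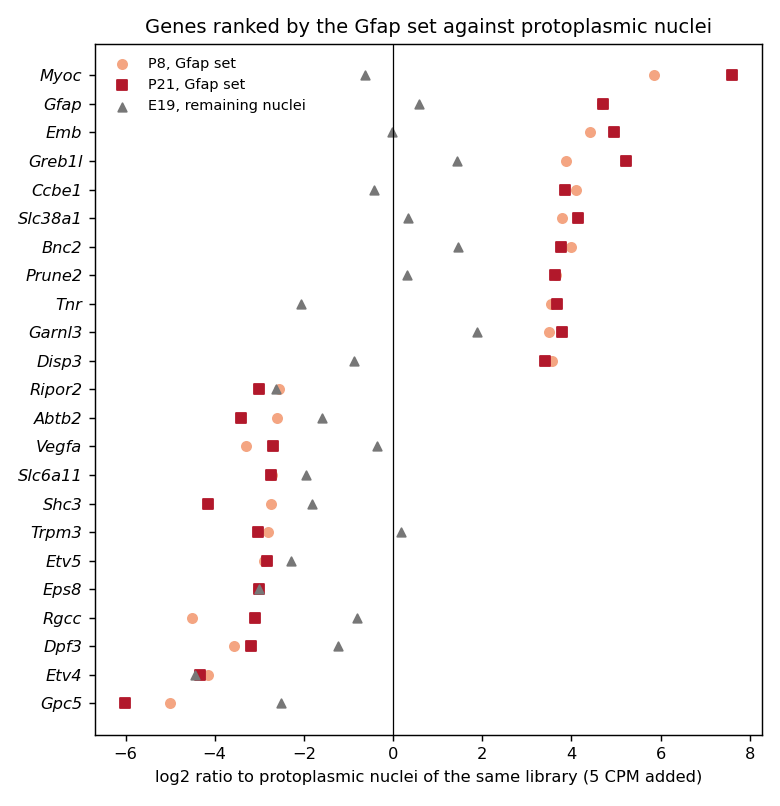
Log2 ratio to protoplasmic nuclei of the same library (horizontal axis, 5 CPM added) of the named highest and lowest genes of the Gfap set, at P8 (circles) and P21 (squares), and of the same genes in the remaining nuclei of E19 (triangles). Gfap, Myoc and Slc38a1 chose the set. At E19 Etv4 and Eps8 lie as far below protoplasmic nuclei as later, while Tnr and Disp3 lie below 0. Myoc at E19 also lies below 0, but it had no UMI in these nuclei and 2 in protoplasmic nuclei, so its point carries no direction.

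The lists of genes by function hold 18 to 42 genes each, and their counts cover the members with at least 50 CPM in any of the 4 profiles. A member that reached this level in the Gfap set alone, such as Slc16a1, could not count as lower. Likewise, a member that reached it in protoplasmic nuclei alone, such as Glul, could not count as higher. Of 23 transport and ion homeostasis genes besides Slc38a1, which chose the set, 2 passed 2-fold above protoplasmic nuclei at both stages (Aqp4 and Slc16a1) and 9 below. The median of these 23 was -1.01, against 0.13 for all genes, of which 6.16% passed above and 3.28% below. Among the 9 were the glutamate transporter Slc1a2, the GABA transporter Slc6a11, the glycine transporter Slc6a9, Glul, Slc7a10, Slc13a5 and Slc38a3. Slc1a2 stood at 557 CPM at P8 and 722 CPM at P21 against 1200 and 3815 CPM in protoplasmic nuclei. Glul, glutamine synthetase, stood at 31.8 and 23.9 CPM against 132 and 542. Slc16a1, a monocarboxylate carrier, stood at 84.8 and 215 CPM against 3.92 and 22.2.

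Across all genes, 6.16% passed above and 3.28% below. Of 14 filament, cytoskeleton and linker genes besides Gfap, which chose the set, 5 passed 2-fold above and none below, with a median of 0.75. They were Vim (vimentin), Cd44 (the hyaluronan receptor), Plec (the cytolinker plectin), Actn1 and Dclk1, of which Vim, Cd44 and Plec reached 50 CPM in the Gfap set alone. Vim stood at 127 and 57.3 CPM against 33.3 and 8.58, and Plec at 133 and 234 CPM against 28.4 and 31.4. Of 22 reactive astrocyte genes, 5 had enough UMIs, too few to describe the list, and Gfap is among them. C4b, complement component 4B, stood at 138 CPM at P8 and 492 CPM at P21 against 13.7 and 16.4.

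The shares of all genes, beside which the next counts are to be read, were 6.16% above and 3.28% below. Of 25 transmitter and modulator receptor genes, 1 passed above (Grik4), near that share, and 8 below, with a median of -0.81. Grm3, the astrocytic metabotropic glutamate receptor, stood at 297 and 206 CPM against 2540 and 900, and Gria2, an AMPA receptor subunit, at 138 and 76.5 CPM against 639 and 953. Of 25 growth factor and morphogen genes, 3 passed above (the Wnt inhibitor Wif1, Igfbp5 and the cytokine receptor subunit Il6st) and 5 below, among them Egfr at 239 CPM at both stages against 949 and 576, and Fgf1, a fibroblast growth factor. Of 28 transcription factor genes, 3 passed in each direction: Id1, Id4 and Rfx4 above, Dbx2, Etv4 and Etv5 below. Of 35 guidance and adhesion genes, 6 passed above, including Robo2 and Efnb3, and 4 below, including the netrin gene Ntn1.

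Of 24 metabolism genes, 1 passed above (Dbi) and 1 below (Acsbg1, a very long chain acyl-CoA synthetase of astrocytes), with a median of -0.22. Both counts are near the shares of all genes, 6.16% above and 3.28% below. Of 11 matrix genes, Tnr and the proteoglycan Vcan passed above and Timp3 below. Of 14 radial glia and progenitor genes, Hopx, Pax6, Dbi and Vim passed above, and the Notch target Hes5 and Gli2 below. Of 11 secreted synapse regulators and phagocytic receptors, none passed above and 4 passed below (Gpc5, Mfge8, Ptn and Wnt7a).

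From P8 to P21, the Gfap set differed by 2-fold or more in 476 of 4992 genes toward P21 (9.54%) and in 586 toward P8 (11.7%). These counts rest on 39 and 51 nuclei and follow the minimum level closely: with a minimum of 20 CPM they were 953 and 1281. The ranking is not stable either. Of the 12 genes ranked highest toward P21, 6 stayed among the 12 with that minimum and 4 after thinning to 1500 UMIs. Of the 12 ranked lowest, 4 and 2 stayed. Each gene named below as higher at P21 by rank also had a ratio above 0 in protoplasmic nuclei, from 0.22 to 4.72. All 8 oligodendrocyte markers had UMIs in fibrous nuclei at P21, and their sum stood at 1142 CPM in the Gfap set, 829 CPM in protoplasmic nuclei, 301 CPM in excitatory neurons and 22940 CPM in oligodendrocyte lineage nuclei of that library. Mog, Mobp, Mag and Cldn11 had no UMI in the Gfap set at P8. The part of free RNA from oligodendrocytes in these values was not tested.

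The gap junction gene Gjb6 (connexin 30) had no UMI at P8 and 115 CPM at P21, at least 7.21-fold higher with a limit of 3 UMIs in the P8 library, and stood at 9.80 and 205 CPM in protoplasmic nuclei. Mt2, a metallothionein, stood at 10.6 and 234 CPM, and in protoplasmic nuclei at 6.86 and 164. Eva1a stood at 5.30 and 182 CPM, and in protoplasmic nuclei at 0.980 and 152. These 3 genes thus went the same way in both labels.

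Slc36a2, a proton-coupled transporter of small amino acids, stood at 37.1 CPM at P8 and 478 CPM at P21, against 0 and 7 UMIs in protoplasmic nuclei, and 73.8% of its UMIs in the whole series lay in fibrous nuclei. Fxyd1, phospholemman, a regulator of the sodium pump, had no UMI at P8 and 172 CPM at P21, at least 10.8-fold higher, against 1.96 and 28.6 CPM. Pcsk6, a proprotein convertase, stood at 5.30 and 105 CPM against 5.88 and 56.5. The Gjc3 gene (connexin 29), ranked for the step from E19, stood at 21.2 and 272 CPM against 5.88 and 25.0. Myoc differed by 2.44-fold between the P8 and P21 libraries of the Gfap set, and Gfap did not pass 2-fold, with 1956 and 1778 CPM. Rhpn2, Zfp976 and the transcripts 4833423E24Rik, F830045P16Rik and C530044C16Rik followed, each with at most 1 UMI at P8 and 22 to 26 at P21.

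Genes lower at P21 were led by Kcnj6, a G protein-gated potassium channel, at 318 CPM at P8 and 9.56 CPM at P21, and in protoplasmic nuclei at 100.0 and 3.57 CPM. The tubulins Tubb2b and Tubb2a stood at 403 and 254 CPM at P8 and 14.3 and 33.5 CPM at P21, and the thymosin Tmsb10 at 212 and 23.9 CPM. Of 14 filament and cytoskeleton genes besides Gfap, 1 passed 2-fold toward P21 (Cd44) and 8 toward P8 (Gap43, Marcks, Stmn1, Tmsb10, Tmsb4x, Tubb2b, Tubb5 and Vim), with a median of -1.32 against -0.01 for all genes. Adamts6, Prom1, Sez6l, Gm11808, Adgrv1, Epha7, Tmem132c and Gm29478 completed this group. For part of it the P8 level rests on few nuclei. The 2 nuclei of the Gfap set of P8 that had no Gfap UMI held 38 of the 42 Gm29478 UMIs of the set, 35 of the 56 of the ephrin receptor gene Epha7, 16 of the 22 of Adgrv1 and 7 of the 22 of Tmem132c. Without these 2 nuclei, an alternative chosen after seeing the data, the log2 ratio of P21 over P8 was 0.27 in place of -2.76 for Gm29478 and -1.38 in place of -2.65 for Epha7. It was -2.01 in place of -3.64 for Adgrv1 and -2.23 in place of -2.65 for Tmem132c. Of 20 transport genes besides Slc38a1, 5 passed toward P21, among them Gja1, Gjb6, Kcnj10 and Slc16a1, where 9.54% of all genes did, and the 2 toward P8 are near the 11.7% of all genes. A list member that reached 50 CPM at P21 alone, such as Gjb6, could only count toward P21, and likewise for P8.

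**Figure D5:**
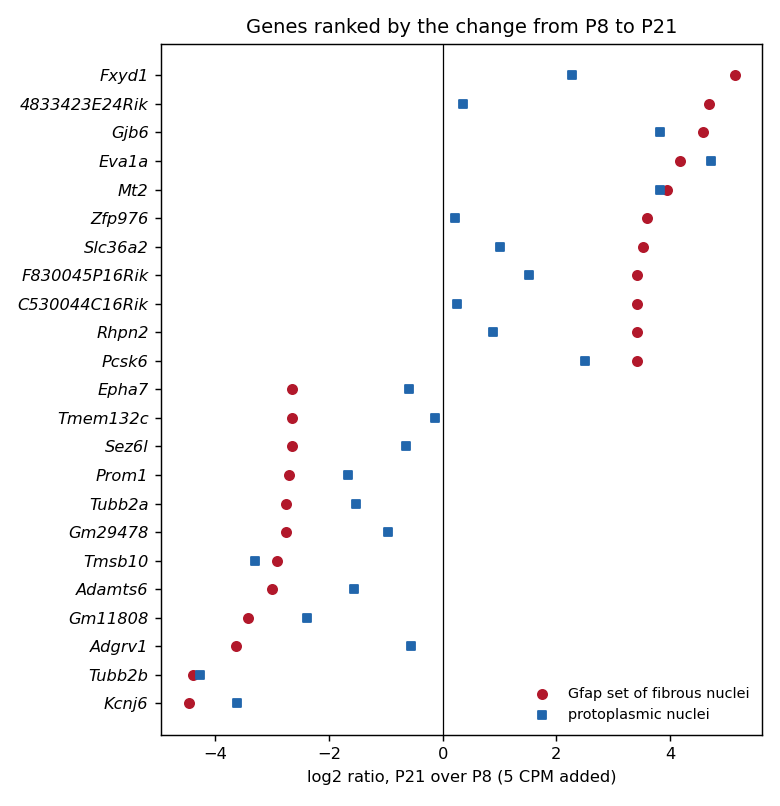
Log2 ratio of P21 over P8 (horizontal axis, 5 CPM added) of the named highest and lowest genes in the Gfap set of fibrous nuclei (circles), beside protoplasmic nuclei (squares), 1 library per stage. Eva1a, Mt2, Gjb6, Tubb2b and Tmsb10 lie close together in both, whereas Slc36a2, 4833423E24Rik, Adgrv1 and Tmem132c lie apart.

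The Dnah/Cfap set holds 38 nuclei, of which 25 are from P4. At P4 the median share of UMIs from Dnah and Cfap genes was 1.39% in this set (range 0.596% to 3.79%), while protoplasmic nuclei of that library had a median of 0.0391% and none above 0.220%. That share is the rule. Other cilium genes, which the rule did not use, were high as well. Spag17 and Hydin, proteins of the central pair of motile cilia, stood at 993 and 800 CPM in the P4 nuclei, against no UMI and 2.55 CPM in protoplasmic nuclei. Crocc2, a gene related to the ciliary rootlet, stood at 527 CPM against no UMI. Ak9, an adenylate kinase, stood at 756 CPM, and Npsr1, the neuropeptide S receptor, at 1222 CPM. Of the 5 ependymal markers, Foxj1, the master regulator of motile cilia, stood at 79.1 CPM, Tmem212 at 308, Ccdc153 at 44.0, Dynlrb2 at 79.1 and Rarres2 at 70.3 CPM; their sum was 580 CPM in this set, 26.5 CPM in the Gfap set at P8, 13.2 CPM in the remaining nuclei of E19 and 6.38 CPM in protoplasmic nuclei at P4. Slc1a3 stood at 193 CPM against 893 in protoplasmic nuclei of P4, and Slc4a4, a bicarbonate transporter, at 325 against 2253. Gfap stood at 96.7 CPM, with a UMI in 6 of 25 nuclei, and in protoplasmic nuclei at 116 CPM, with a UMI in 22 of 175.

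The 38 nuclei were not alike among themselves. Sspo, which encodes SCO-spondin, a large secreted glycoprotein known from the subcommissural organ, had 5 to 35 UMIs in 15 nuclei and none in the other 23, with no nucleus between. Of the 15, 1 was from E19, 11 from P4, 1 from P8 and 2 from P21. At least 3 UMIs of the transcription factor gene Lmx1b and the noncoding Gm29478 together were found in 14 of these 15 and in 10 of the 23, and the median of the noncoding Rmst was 30 UMIs in the former and 11 in the latter. The 5 nuclei with most Dnah and Cfap UMIs, 108 to 172 each, all had no Sspo and no Lmx1b UMI. Sspo stood at 2162 CPM in the P4 nuclei, and 71.1% of its UMIs in the series were in fibrous nuclei.

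The Ttr set holds 6 nuclei, all from P4, with 49 to 119 Ttr UMIs each, while no other fibrous nucleus of P4 had more than 3. Each also had 117 to 263 UMIs of Htr2c, the serotonin 2C receptor, no Gfap, Slc4a4 or Aqp4 UMI and at most 1 Slc1a3 UMI. Beyond Htr2c at 30368 CPM, the highest genes were Gmnc (geminin coiled-coil, a regulator of multiciliated cells) at 3380 CPM, the transcription factor Lmx1a at 936, Nhsl2, Rbm47, Myo5b, Tmem72, Sulf1, Atp2b3, Col8a1, Slc13a4 and Elovl7. Htr2c, Trpm3 and Ttr are known to be high in choroid plexus epithelium, and Ttr chose the set. Of the other markers on the choroid plexus list, Folr1 had 9 UMIs in these nuclei, Kcnj13 had 6 and Kl had 3. Trpm3 stood at 25714 CPM. These 6 nuclei held 500 of the 535 Ttr UMIs of the label at P4. Elsewhere in the series, at least 20 Ttr UMIs were found in 1 committed oligodendrocyte nucleus and 1 nucleus of the neuron subtype EN1, both from P4. Protoplasmic nuclei of P4 had 170 CPM of Ttr, and those of E19 and P8 none, and how much of the low Ttr signal at P4 is free RNA was not tested.

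The 34 remaining nuclei of E19 had 1 Gfap UMI in all. Their median share of UMIs from Dnah and Cfap genes was 0.205%, against 0.0588% in protoplasmic nuclei of E19. Against the 155 protoplasmic nuclei of that library, 472 of 5195 genes (9.09%) were 2-fold or more higher and 363 (6.99%) 2-fold or more lower. Lmx1b stood at 218 CPM against 1.36, the Wnt ligand gene Wnt9a at 159 CPM against no UMI, Cdh3 (P-cadherin) at 165 against 1.36, and Rspo2, an enhancer of Wnt signalling, at 106 against no UMI. Rmst stood at 3138 CPM against 184, the netrin receptor gene Unc5c at 998 against 65.2, and Gm29478 at 476 against 13.6. Per nucleus, the median was 0 UMIs for Lmx1b, 0 for Gm29478 and 11.5 for Rmst. The levels of Lmx1b and Gm29478 thus rest on part of the 34 nuclei. Over all stages, fibrous nuclei had rank 1 of the subtypes for Cdh3 and rank 2 for Lmx1b, Wnt9a and Gm29478 behind epithelial cells, for Rspo2 behind vascular leptomeningeal cells and for Rmst behind the neuron subtype EN13. The highest also included P3h2, Gm32926, Gm42722, Dnah9 and Dnah11. The lowest included Pla2g3, Etv4, Eps8, Disc1, Pde10a, the glutamate receptor gene Grm5 (159 CPM against 1066), Prkag2, Dscaml1, Gpc5, Egfr (218 against 1233) and Fam212b. The Dnah genes help to define the Dnah/Cfap set. Of the other 10 of the 12 highest, 9 (all but P3h2, which had no UMI there) were also higher than in protoplasmic nuclei in the Dnah/Cfap set of P4, by 2.65 or more on the log2 scale. There Lmx1b stood at 369 CPM, Rmst at 4544 and Unc5c at 1116. The 11 remaining nuclei of P4 had a median of 2 Slc1a3 and 1 Slc4a4 UMIs, against 2.5 and 5 in those of E19.

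The E19 nuclei and the later Gfap set stood on the same side of protoplasmic nuclei for part of their genes. Over the 4378 genes with enough UMIs in both comparisons, 203 were higher in the Gfap set at P8 and P21 and 282 in the E19 nuclei, and 75 genes were in both lists, which is 36.9% of the former and 26.6% of the latter; 6.44% of all 4378 genes were higher in the E19 nuclei. For lower genes, 132 and 317 genes shared 62, which is 47.0% and 19.6%, against 7.24% of all. The shared higher genes include Rmst, Unc5c, Efnb3, Glis3, Greb1l, Bnc2, Igfbp5, Rfx2, Dnah9 and Prom1. Gm29478 is among them too, but at P8 38 of its 42 UMIs in the Gfap set lay in the 2 nuclei without a Gfap UMI. The overlap was not recounted without those 2. The shared lower genes include Etv4, Etv5, Egfr, Gpc5, Slc1a2, Slc6a11, Grm3, Grm5, Gria2, Hes5 and Dbx2. The 2 comparisons use different libraries, but all these nuclei were put in cluster 18 by the authors from such genes, so the overlap is not independent of the label. The minimum of 50 CPM bears on it as well. A gene near 0 in protoplasmic nuclei entered both comparisons only by reaching that level in both groups of fibrous nuclei. Likewise, a gene near 0 in both fibrous groups entered only through protoplasmic nuclei. The shares of all 4378 genes do not allow for this, so the size of the overlap is a description only. Several genes that stood high later did not at E19: the log2 ratio to protoplasmic nuclei was -2.06 for Tnr, -0.03 for Emb and -2.60 for Prkag2, while Garnl3 was at 1.89 and Bnc2 at 1.46.

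With all fibrous nuclei of a library summed, 199 of 6574 genes (3.03%) were 2-fold or more above protoplasmic nuclei in all 4 libraries and 70 (1.06%) 2-fold or more below; with TMM scaling, which moved the median of all genes from 0.08 to -0.11, the counts were 163 and 92. Without the Ttr and Dnah/Cfap sets, 91 genes were above and 64 below. The 12 highest by median ratio were Sspo, Lmx1b, Gm29478, Dnah9, 1700007G11Rik, Dnah12, Spag17, C230072F16Rik, Ak9, Wdr49, Gm42722 and Dnah11, with medians of 3.81 to 5.07. Only 2 of these 12 were still among the 12 highest once those 2 sets were left out. Sspo, at 26.2, 1090, 145 and 282 CPM, had no UMI in the remaining nuclei of E19 or the Gfap set of P8. The 12 lowest were Gpc5, Etv4, Phactr3, Eps8, Cldn10, Disc1, Etv5, Dpf3, Abtb2, Slc6a11, Shc3 and Ripor2, with medians of -2.67 to -4.40, and 9 of them stayed among the 12 lowest without the 2 sets. Etv4 varied little between libraries, with log2 ratios of -4.62, -4.21, -4.07 and -4.39 in stage order. Gpc5 went from -2.60 at E19 to -6.07 at P21; its level in fibrous nuclei stayed between 68.1 and 132 CPM while protoplasmic nuclei went from 438 to 9219 CPM.

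Between E19 and P21, 813 of 5454 genes (14.9%) were 2-fold or more higher at P21 in the fibrous label and 1054 (19.3%) 2-fold or more lower. With TMM scaling, which moved the median of all genes from -0.06 to 0.17, the counts were 1063 and 794, so the balance turned. This comparison sets 41 nuclei, of which 1 is in the Gfap set, against 55, of which 51 are. The genes highest at P21 included Myoc (at least 155-fold), Gfap, C4b, Slc36a2, Prkag2, Tnr, Ctnna3, Disp3, Lgi4, Gjc3 and Mt2. Prkag2, a regulatory subunit of AMP-activated kinase, stood at 15.7, 84.2, 1153 and 1689 CPM, and in protoplasmic nuclei at 145, 149, 189 and 119 CPM. Ctnna3, an alpha catenin, stood at 15.7, 346, 985 and 1385 CPM, and in protoplasmic nuclei at 13.6, 71.4, 144 and 251 CPM. C4b, Slc36a2, Lgi4, Gjc3 and Mt2 had no UMI at E19, and C4b was at least 29.7-fold, Slc36a2 at least 28.0-fold and Mt2 at least 14.3-fold higher at P21.

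The 12 genes lowest at P21 were Tubb2b, Col22a1, Ntn1, Mfge8, Tox3, Veph1, Cdh3, Maged2, Dpysl5, Apcdd1, Pax7 and Gm32926. Tubb2b stood at 1170, 758, 368 and 13.2 CPM, and in protoplasmic nuclei at 1098, 844, 313 and 11.4. Ntn1, the guidance cue netrin-1, stood at 446, 66.5, 0 and 4.41 CPM, and in protoplasmic nuclei at 243, 76.5, 81.4 and 63.6. Col22a1, a collagen of tissue junctions, stood at 289 CPM at E19 with no UMI at P21, at least 21.8-fold lower, against 23.1 and 0.715 CPM. Pax7, a transcription factor of the dorsal midbrain, stood at 105, 17.7, 27.2 and 0 CPM, and in protoplasmic nuclei at 69.3, 19.1, 39.2 and 10.0.

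By list, 13 of 21 transport genes passed 2-fold toward P21 and 2 toward E19, with a median of 1.23 against -0.06 for all genes, of which 14.9% passed toward P21 and 19.3% toward E19. The list counts cover members with at least 50 CPM at E19 or P21. A member that reached this level at P21 alone, such as Kcnj10, could only count toward P21, and likewise for E19. Slc4a4 stood at 1128 and 2421 CPM, Gja1 (connexin 43) at 142 and 512, and Kcnj10 (the potassium channel Kir4.1) at 42.0 and 225 CPM. Of 21 metabolism genes, 9 passed toward P21, and the 4 toward E19 are near the share of all genes. Of 15 radial glia and progenitor genes, 2 passed toward P21 (Hopx and Pax6), near the share of all genes, and 7 toward E19 (Ednrb, Fabp7, Hes5, Pax7, Sox2, Veph1 and Vim). Of 34 guidance and adhesion genes, 9 passed toward P21, led by Cntn1 and Sema6d, and 12 toward E19, led by Ntn1 and Efnb3. Of 19 receptor genes, 7 passed toward P21, led by the neurotensin receptor Ntsr2 and by Gria1 (231 and 2258 CPM), and 5 toward E19. Gria1 went from 44.9 to 2354 CPM in protoplasmic nuclei.

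The stage difference was not the same in both astrocyte labels for some genes, and with 1 library per stage this difference was not tested. By the rule that ranked it, Myoc, Pla2g3, Inpp5j and Prkag2 stood highest toward the fibrous label, by 6.63 to 8.12 on the log2 scale. Vav3, Slco1c1, Lgr6, A330076C08Rik and Cdh3 stood lowest, by -4.42 to -5.06. Of the latter, Slco1c1, a thyroid hormone transporter, had 1 UMI at E19 and none at P21 in fibrous nuclei, while it stood at 5.44 and 164 CPM in protoplasmic nuclei. In fibrous nuclei of P4 it had 37 UMIs, 13 of them in the Ttr set and 18 in the remaining nuclei. Pla2g3 and Inpp5j overlap on opposite strands of chromosome 11 (3488284 to 3499350 and 3494375 to 3504821), both had 40 UMIs at P21, and the sources used here do not say whether counting used the strand.

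Markers of other cells were checked in the label as a whole. Of 8 neuron markers, 7 had UMIs at every stage, and Tubb3 had none in these nuclei or in excitatory neurons. Their sum was 626 to 842 CPM in fibrous and 442 to 792 CPM in protoplasmic nuclei, and 3199 CPM in excitatory neurons of P21. The 6 microglia markers summed to 22.7 to 66.5 CPM, the 5 endothelial markers to 0 to 35.5, the 5 markers of oligodendrocyte precursors to 36.7 to 66.1 and the 6 vascular leptomeningeal markers to 52.5 to 173 CPM. The 6 markers of dividing cells summed to 94.5 CPM at E19 and to 4.41 CPM at P21. Their part in the results was not tested.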

How the data were processed

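Nuclei from pooled superior colliculus were captured with the 10x 3′ v3 chemistry and processed with Cell Ranger 3.0.2 against a pre-mRNA reference of mm10, per the labels and the submitters' processing notes. The authors' deposited matrix holds counts of UMIs for 31053 genes, not normalised, and their deposited table gives stage, subtype, cluster, UMI totals and the percent of mitochondrial and of ribosomal protein UMIs. A further 4 columns of values were not used. The filter on nuclei, the treatment of doublets, the integration and the naming are not given in the sources used here. Deposited UMI totals were recomputed and were equal in 9724 nuclei. No nucleus was removed and no doublet caller was run.

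UMIs were summed per library and label and scaled to CPM (Python 3.11.15, numpy 2.4.6, pandas 2.3.3, scipy 1.17.1). Log2 ratios have 5 CPM added. A gene counts as past the fold at 2-fold or more, among genes with at least 50 CPM in the highest profile. Genes were named by rule: the 12 highest and 12 lowest with at least 100 CPM, by the median ratio to protoplasmic nuclei with 1 sign in all 4 libraries and by the ratio of P21 to E19; the 5 in each direction whose stage ratio differed most between labels; the markers; and in each list the 2 most extreme. Some ranked genes and list members are not reported here. Genes of mitochondria, ribosomal proteins, haemoglobins and the sex chromosomes' markers were left unranked. Rankings within the sets of nuclei, the sets themselves and single genes beyond these rules were added after values were seen. The label, the gene lists and the rules were chosen with earlier results of these data known. Zero counts were limited at 3 UMIs per library and label. Intervals are at the 95% level. The calculation was tested on simulated counts. Alternatives were a pseudocount of 20 CPM, TMM scaling (edgeR 4.0.16 in R 4.3.3), nuclei weighted alike, no 10% deepest nuclei, a minimum of 20 CPM, thinning to 1500 UMIs, and leaving out sets of nuclei or the nuclei of the Gfap set of P8 without a Gfap UMI. Positions are 1-based, from GENCODE on GRCm38, which holds 31011 of the gene identifiers; of 129 named genes, 55 overlap no other gene, 64 overlap one on the other strand and 36 one on the same strand.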

Additional observations from a re-analysis of the deposited data

Results flagged for a closer look

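Of the 10 genes ranked by how far the E19 to P21 ratio differed between the labels, 4 had ratios of opposite sign in the 2 labels. Slco1c1, which had at most 1 UMI in fibrous nuclei of both stages, was left out for that reason after its values were seen. Each label has 1 library per stage, so these differences were not tested. Pla2g3, a secreted phospholipase, had a log2 ratio of P21 over E19 of 5.18 in fibrous and -2.28 in protoplasmic nuclei. For Inpp5j, which overlaps it on the other strand, the values were 5.18 and -1.85, and for Prkag2 they were 6.35 and -0.27. The TMM factors of protoplasmic nuclei were 0.995 at E19 and 0.833 at P21. The -0.27 of Prkag2 is about as small as that difference in scaling, so it carries no direction. Vav3, a guanine nucleotide exchange factor, went the other way, with -2.37 in fibrous nuclei and 2.69 in protoplasmic nuclei; its level in fibrous nuclei was 89.2 CPM at E19 and 13.2 CPM at P21, the latter from 3 UMIs. Pla2g3 peaked between these stages, at 563 CPM in fibrous and 247 CPM in protoplasmic nuclei at P8.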

How the results depend on the processing

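Alternatives that left out the Ttr and Dnah/Cfap sets were added after the data were seen. They moved the fibrous share of astrocytes at P4 from 21.5% to 8.85%, Gfap at P4 from 177 to 395 CPM and Slc1a3 at P4 from 270 to 518 CPM, and the count of genes above protoplasmic nuclei in all 4 libraries from 199 to 91. A pseudocount of 20 CPM gave 94 for that count, and 302 and 379 in place of 476 and 586 for the Gfap set from P8 to P21. A minimum of 20 CPM gave 953 and 1281 for the latter, and 1420 and 1984 in place of 813 and 1054 from E19 to P21. Thinning to 1500 UMIs gave 1024 and 1186 for the Gfap set, and Gfap levels of 0 at E19 and 2015 CPM at P8. Without the deepest nuclei Gfap at P8 was 1913 CPM. The other recomputed counts of genes over whole comparisons stayed within 1.5 times of the reported value under each alternative run. The counts for the remaining nuclei of E19 and their overlap with the Gfap set were not recomputed under any alternative.

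For single genes, the sign of a ratio past 2-fold turned in 9 of 1200 recomputed values. From P8 to P21, Gm29478 in the Gfap set stood at 0.27 without the nuclei of P8 that had no Gfap UMI. The other 8 are ratios to protoplasmic nuclei. At P8 without the deepest nuclei, Sspo, Spag17 and Ak9 stood at -0.30 and 1700007G11Rik at -0.95, and without the 2 sets Sspo and Spag17 stood at -0.26. At P4 without the 2 sets, Dnah12 and C230072F16Rik stood at -0.59. Another 98 of the 1200 values were marked as moved without a turn of sign. They include 31 of 208 after thinning, 30 of 208 with a pseudocount of 20 CPM and 30 of 136 without the 2 sets. List counts stayed within 1.5 times in 61 of 66 values with TMM scaling, 63 with nuclei weighted alike and 47 after thinning. No paired analysis was possible because the labels give no replicate numbers and no result comes from a test; both astrocyte labels of a stage share 1 library, and their ratios were taken within it. The alternative restricted to nuclei with an astrocyte reference label was not run: 0 of the 189 nuclei carry such a label. A gene without a UMI in fibrous nuclei of P21 could stand at up to 13.2 CPM, the level of 3 UMIs.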
